A study of Mus musculus with 3 samples.

Results

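The genes described here make cholesterol, control its synthesis, carry it out of cells and take it up. They are 30 mouse genes chosen by symbol, and all 30 were found among the 32285 genes of the deposited count matrices. They comprise 18 enzymes of the mevalonate and sterol pathway, 6 genes of sterol control and transport, 3 genes of efflux and 3 genes of uptake and lysosomal handling. Their levels were read in single cells of the hypothalamus of 8-week-old male mice by droplet RNA sequencing (10x Genomics 3′ kit). HS mice were exposed to heat, QS mice were taken in the recovery that followed, and PF mice, fed to match the intake of the heat-exposed animals, served as control. The labels name no strain, transgene or drug, and each group was 1 library. They do not state how many mice a library pooled, the heat protocol or how long QS mice recovered. RT mice, also part of the design, were not analysed here.

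With 1 library a group there is no replicate and no test. Ranges in parentheses after a ratio are exact 95% intervals for counting error alone. The words higher and lower therefore compare libraries and do not speak of the conditions. The comparisons of HS and of QS with PF share the PF library, and QS against HS shares a library with each of them.

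Most cells can build cholesterol from acetyl-CoA through mevalonate, isoprenoid and squalene intermediates. Little cholesterol crosses the blood-brain barrier, so brain cells make their own, and much of it goes into the myelin that oligodendrocytes produce. When membrane sterol is low, the carrier protein Scap brings SREBP transcription factors, encoded by Srebf1 and Srebf2, to be cut and released, and the retention proteins Insig1 and Insig2 hold that complex back when sterol is plentiful. Apoe carries lipid between brain cells, the transporters Abca1 and Abcg1 load it, and the receptor Lrp1 takes the particles up.

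The HS, QS and PF libraries held 12510, 11720 and 12836 cell barcodes, and 103891747, 93295920 and 100727912 UMIs (molecular tags that count captured transcripts). Filters and doublet removal left 11630 HS, 10782 QS and 11877 PF cells, whose median depths were 6298, 6162 and 6143 UMIs. Cells were put in classes by marker genes, and 29163 cells fell in the 8 classes that held at least 100 cells in every library. Class names end in "-like", since markers at the RNA level gave them. Of 29 markers kept out of the gates, 29 were higher in their own class than in any other, 26 of them by at least 2 times, and the lowest ratio was 1.11. The libraries shared 37 to 51 barcodes a pair, at most 0.435% of the smaller library. Levels are UMIs per 1000000 UMIs (CPM), both summed over a class in a library.

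The promoters of 4 members are shown, as a description, because these genes had the highest QS to HS ratios named for ependymal-like cells. Each runs from 250 bases before to 50 bases after a transcription start, as given by RefSeq on GRCm38, which is the mm10 build of the files. Capitals mark the NF-Y box CCAAT, the GC box GGGCGG and the sterol regulatory element TCACNCCAC, searched on both strands, and no marked motifs overlapped. Insig1 is at chr5:28071162-28071461 on the plus strand, Idi1 at chr13:8885356-8885655 on the plus strand, Hmgcs1 at chr13:119690101-119690400 on the plus strand and Msmo1 at chr8:64733529-64733828 on the minus strand.
Insig1: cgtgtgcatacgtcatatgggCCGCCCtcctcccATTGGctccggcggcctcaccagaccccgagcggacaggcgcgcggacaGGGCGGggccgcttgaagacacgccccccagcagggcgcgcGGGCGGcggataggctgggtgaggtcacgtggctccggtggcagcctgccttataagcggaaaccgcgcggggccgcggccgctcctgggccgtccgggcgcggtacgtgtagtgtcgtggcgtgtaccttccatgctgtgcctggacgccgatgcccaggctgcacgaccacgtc
Idi1: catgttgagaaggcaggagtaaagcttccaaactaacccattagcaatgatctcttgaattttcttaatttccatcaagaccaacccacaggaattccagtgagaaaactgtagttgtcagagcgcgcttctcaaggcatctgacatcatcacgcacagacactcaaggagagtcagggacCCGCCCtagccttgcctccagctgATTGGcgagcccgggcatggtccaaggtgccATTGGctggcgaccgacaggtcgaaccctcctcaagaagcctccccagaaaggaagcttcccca
Hmgcs1: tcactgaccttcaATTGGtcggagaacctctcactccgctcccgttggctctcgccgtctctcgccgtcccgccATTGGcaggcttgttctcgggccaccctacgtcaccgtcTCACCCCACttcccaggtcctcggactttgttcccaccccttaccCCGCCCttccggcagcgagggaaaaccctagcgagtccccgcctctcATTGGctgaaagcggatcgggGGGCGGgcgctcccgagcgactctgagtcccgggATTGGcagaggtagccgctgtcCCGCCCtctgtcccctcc
Msmo1: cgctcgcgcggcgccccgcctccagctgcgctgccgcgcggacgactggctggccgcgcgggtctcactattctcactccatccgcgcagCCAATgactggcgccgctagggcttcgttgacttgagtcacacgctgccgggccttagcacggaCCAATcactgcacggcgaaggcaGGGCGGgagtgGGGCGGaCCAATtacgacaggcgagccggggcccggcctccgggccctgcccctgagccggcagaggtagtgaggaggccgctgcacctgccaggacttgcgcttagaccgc

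The sterol element was found in the Hmgcs1 promoter alone among 34 promoters of the 24 members that matched the RefSeq table, and its first base lies at -137 from the start. It occurred in 1.24% of all 32851 promoters of the same length. The NF-Y box was in 20 of the 34 member promoters (58.8%) and in 37.4% of all. The GC box was in 26 of the 34 (76.5%) and in 35.7% of all. Msmo1 had 3 NF-Y boxes and 2 GC boxes, Hmgcs1 had 4 and 3, Idi1 had 2 and 1, and Insig1 had 1 and 3. A match describes letters in this window and is not evidence of binding. Fdps, Fdft1, Sqle, Stard4, Abcg1 and Npc1 had no match in the RefSeq table, so their promoters were not searched.

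Synthesis enzymes were highest in oligodendrocyte-like cells, which make myelin. For 14 of the 18 this held without overlap between the ranges of the 3 libraries, and for 7 with a stricter gate, a check added after the data had been seen. That gate leaves out cells with more than 1 detected gate marker of another class. Ratios of single genes with that gate are given without intervals, and in small classes they rest on few UMIs. The summed enzymes came to 2244 CPM in HS, 2499.7 CPM in QS and 2272 CPM in PF oligodendrocyte-like cells. Astrocyte-like cells followed with 1034, 932 and 1049 CPM in the same libraries. Microglia-like cells, the resident immune cells, had 192, 203 and 204 CPM, and border-associated macrophage-like cells had 159.7, 180.3 and 259 CPM. The order from oligodendrocyte-like to astrocyte-like to ependymal-like cells held in all 3 libraries. Endothelial-like, pericyte-like and vascular smooth muscle-like cells, which form and wrap the vessels, all lay between 376 and 536 CPM, and their ranges over the libraries overlapped.

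**Figure D1:**
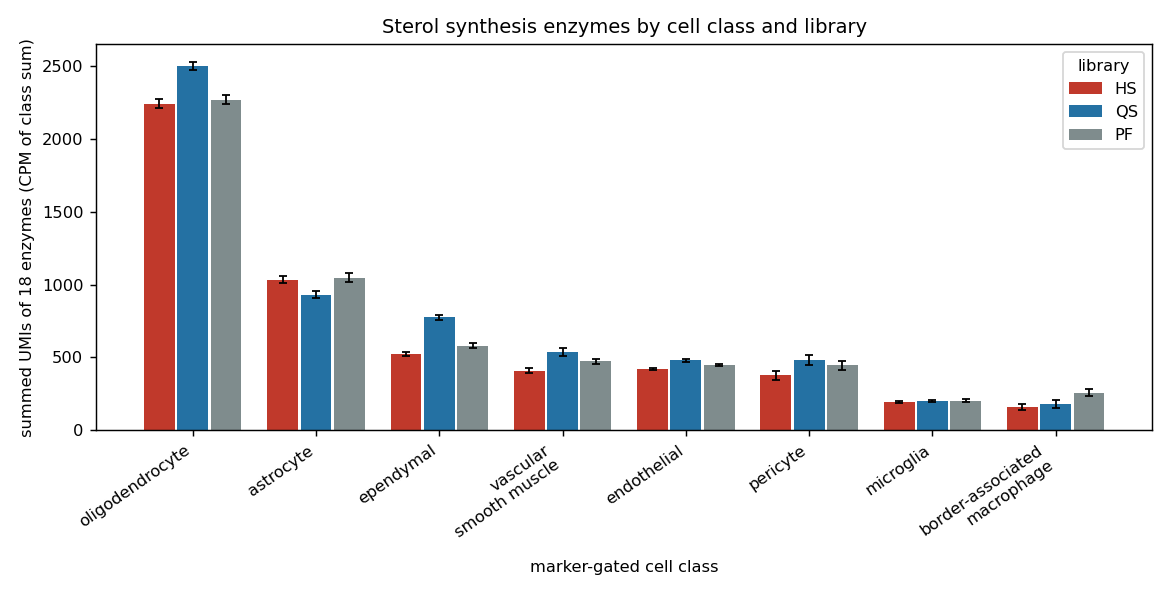
Summed UMIs of the 18 synthesis enzymes, in CPM of each class sum, for 8 marker-gated classes in the HS, QS and PF libraries, with exact 95% intervals for counting error. Oligodendrocyte-like cells are highest in every library, and in ependymal-like cells the QS bar (775 CPM) stands above the HS (522 CPM) and PF (582 CPM) bars.

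By the mean of the 3 libraries, 15 of the 18 enzymes were highest in oligodendrocyte-like cells, and for 14 of them the range over libraries did not overlap that of the next class. Hmgcs1, the cytosolic HMG-CoA synthase, ranged over 504 to 588 CPM there, against 91.1 to 182 CPM in ependymal-like cells, the next class. Fdps, which makes farnesyl diphosphate, ranged over 249.7 to 286 CPM, against 44.5 to 59.2 CPM in endothelial-like cells. Both had a single class far above the others. The same held for Idi1, the isopentenyl diphosphate isomerase, at 148 to 176 CPM against 42.5 to 56.9 CPM in astrocyte-like cells. Cyp51, the lanosterol demethylase, ranged over 155 to 187 CPM, against 55.4 to 57.7 CPM in astrocyte-like cells. Sc5d, a sterol desaturase, ranged over 144 to 154 CPM, against 52.1 to 61.6 CPM in astrocyte-like cells.

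Astrocyte-like cells came closer for other enzymes. Msmo1, the methylsterol monooxygenase, ranged over 347 to 357 CPM in oligodendrocyte-like and 252 to 323 CPM in astrocyte-like cells. Dhcr7, a reductase of the last steps, ranged over 64.7 to 69.6 CPM and 48.0 to 59.6 CPM, and Fdft1, squalene synthase, over 102 to 114 CPM and 74.1 to 87.0 CPM in the same classes. Nsdhl, which removes a carboxyl group from the sterol ring, had its maximum in astrocyte-like cells, at 49.9 to 65.1 CPM against 39.8 to 43.6 CPM in oligodendrocyte-like cells. Tm7sf2, a sterol reductase, was also highest there by the mean, at 11.7 to 13.7 CPM, with a range that overlapped the 7.45 to 12.5 CPM of oligodendrocyte-like cells. Squalene epoxidase, Sqle, did not separate ependymal-like cells (89.6 to 97.7 CPM) from oligodendrocyte-like cells (89.4 to 97.7 CPM).

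The remaining enzymes were also highest in oligodendrocyte-like cells by the mean. Acat2, which condenses acetyl-CoA, ranged over 57.4 to 68.8 CPM in oligodendrocyte-like and 22.7 to 25.8 CPM in astrocyte-like cells. Mevalonate kinase, Mvk, ranged over 29 to 37.8 CPM, against 19.0 to 23.5 CPM in endothelial-like cells. Its partner Pmvk ranged over 94.3 to 102 CPM, against 73.3 to 83.7 CPM in vascular smooth muscle-like cells. Mvd, the decarboxylase that follows, and Hsd17b7, a ketosteroid reductase, were next highest in astrocyte-like cells, and Ebp, a sterol isomerase, in endothelial-like cells, with ranges that did not overlap. Lss, lanosterol synthase, ranged over 19.3 to 26.9 CPM and overlapped the 15.5 to 20 CPM of ependymal-like cells. The class with the least was microglia-like for 9 enzymes: Mvk, Idi1, Fdps, Fdft1, Sqle, Lss, Cyp51, Msmo1 and Hsd17b7.

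**Figure D2:**
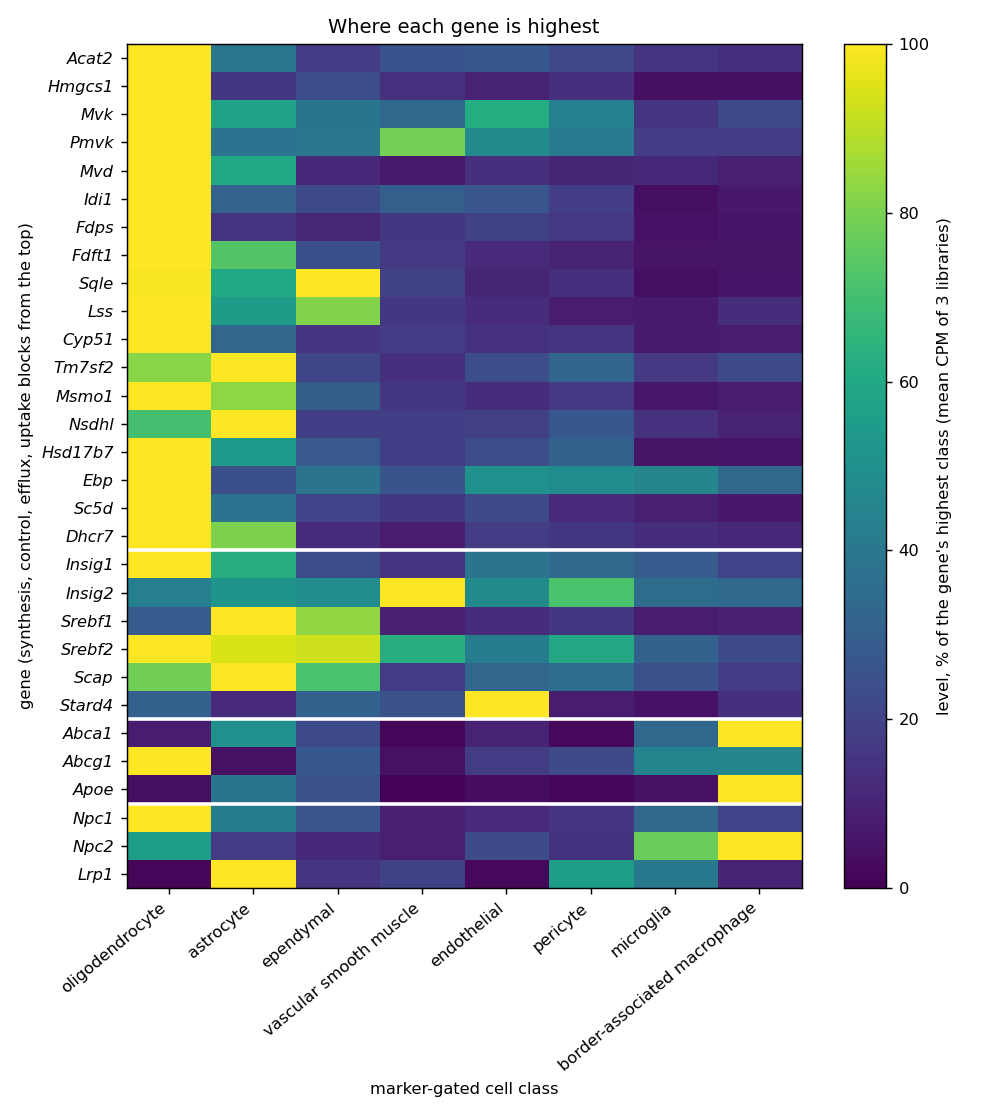
Level of each of the 30 genes in 8 classes, as a percentage of the gene's highest class, from the mean CPM of the HS, QS and PF libraries, with white lines between synthesis, control, efflux and uptake genes. The left column, oligodendrocyte-like cells, is brightest for 15 of 18 synthesis enzymes, whereas Abca1, Apoe and Npc2 are brightest in border-associated macrophage-like cells.

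The control genes were spread over the classes. Insig1 was highest in oligodendrocyte-like cells at 127 to 151 CPM, ahead of astrocyte-like cells at 80.7 to 87.9 CPM. Insig2 was highest in vascular smooth muscle-like cells at 77.3 to 91.7 CPM, ahead of pericyte-like cells at 56.6 to 62.1 CPM. Stard4, which moves sterol between membranes, was highest in endothelial-like cells at 56.0 to 61.6 CPM, ahead of ependymal-like cells at 14.9 to 21.4 CPM. The related members Insig1 and Insig2 thus had different leading classes. Scap was highest in astrocyte-like cells at 48.9 to 52.3 CPM, against 39.3 to 40 CPM in oligodendrocyte-like cells. Srebf1 ranged over 147 to 188 CPM in astrocyte-like cells and 128 to 153 CPM in ependymal-like cells, and Srebf2 over 111 to 123 CPM in oligodendrocyte-like and 104 to 117 CPM in astrocyte-like cells. Those last pairs of ranges overlapped.

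Efflux and uptake genes led in other cells. Apoe came to 20524 CPM in HS, 24437 CPM in QS and 18749 CPM in PF border-associated macrophage-like cells, which lie along vessels and meninges. Astrocyte-like cells followed at 7998 to 8467 CPM, and vascular smooth muscle-like cells had the least, at 196 to 233 CPM. Abca1 ranged over 603 to 616 CPM in the macrophages and 289 to 314 CPM in astrocyte-like cells. Apoe and Abca1 thus shared both of their leading classes. Abcg1 differed from Abca1 and was highest in oligodendrocyte-like cells at 98.0 to 108 CPM, with 3.83 to 5.05 CPM in vascular smooth muscle-like cells. Lrp1 was highest in astrocyte-like cells at 337 to 363 CPM and lowest in oligodendrocyte-like cells at 4.53 to 7.45 CPM. The lysosomal sterol-exporting proteins also differed from each other. Npc2, the soluble carrier, was highest in macrophages at 769 to 828 CPM, ahead of microglia-like cells at 603 to 652 CPM. Npc1, the membrane protein, led in oligodendrocyte-like cells at 141 to 155 CPM, ahead of astrocyte-like cells at 61.1 to 64.7 CPM.

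Tanycyte-like cells of the third ventricle floor, with 201 HS, 102 QS and 69 PF cells, fibroblast-like cells (237, 35 and 236) and neuron-like cells (38, 58 and 44) were under the minimum of 100 cells in some library. Their levels, added after the data had been seen, enter no ratio between libraries. Srebf1 came to 199.8, 279 and 273 CPM in HS, QS and PF tanycyte-like cells. Lrp1 came to 588, 593 and 619 CPM in fibroblast-like cells of the same libraries. The summed enzymes came to 625, 821 and 846 CPM in neuron-like cells. Srebf1 in tanycyte-like cells and Lrp1 in fibroblast-like cells were thus above every class with enough cells in the same library.

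In HS against PF, cholesterol genes were more often lower than higher in the HS library, by small amounts. Ratios were taken for the 148 pairs of gene and class with at least 200 UMIs in both libraries together, which covered 29 of the 30 genes (Tm7sf2 had too few). A pair is called higher when the first library is at least 25% above the second and lower when it is at least 20% below, which is the same fold either way. Of these pairs 14 were lower (9.46%) and 1 was higher (0.676%), whereas over all genes 5.05% of pairs were lower and 4.47% higher. With no UMI minimum 49 of 240 pairs were lower (20.4%), against 23.9% of all pairs. That 23.9% includes genes with UMIs in only 1 of the libraries, which are always called. Every member pair had UMIs in both, so the shares are unlike. The median log2 ratio was -0.05 for the members and -0.01 for all genes. No member pair reached 1.5 fold, which 0.652% of all pairs did downward and 0.66% upward. The lower pairs were 8 of 80 for synthesis, 6 of 31 for control, 0 of 18 for efflux and 0 of 19 for uptake. By class they were 5 of 20 in microglia-like (3.36% of all genes there), 4 of 28 in ependymal-like (3.89%), 2 of 12 in vascular smooth muscle-like (3.93%) and 1 of 5 in pericyte-like cells (5.92%). In oligodendrocyte-like cells 1 of 28 was lower (4.84%) and in astrocyte-like cells 1 of 24 (8.92%), under the share among all genes.

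Hmgcs1 had an HS to PF ratio under 1 in all 7 classes where it was measured. In vascular smooth muscle-like cells it came to 62.4 CPM in HS against 80.2 CPM in PF, a ratio of 0.778 (0.666 to 0.907). Microglia-like cells had 19.1 CPM in HS against 24.3 CPM in PF, giving 0.785 (0.657 to 0.936). The ratio was nearest to 1 in oligodendrocyte-like cells, where the gene is highest, at 0.973 (0.931 to 1.02). Idi1 had 34.7 CPM in HS against 49.6 CPM in PF vascular smooth muscle-like cells, a ratio of 0.700 (0.570 to 0.856), and the stricter gate, which left 42 HS and 54 PF cells, turned it to 1.23. Microglia-like cells had 10.3 CPM of Cyp51 in HS against 14.5 CPM in PF, for a ratio of 0.711 (0.559 to 0.901). All 5 lower members of microglia-like cells stood at 24.3 CPM or less in PF. Markers of oligodendrocyte-like cells, the class with the highest enzyme sum, came to 81.8 CPM in HS, 103 CPM in QS and 112 CPM in PF microglia-like cells. Those of astrocyte-like cells, the next class, came to 59.1, 51.2 and 51.3 CPM in the same libraries, higher in HS than in PF. Their part in the microglia-like results was not tested.

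Nsdhl came to 9.27 CPM in HS against 13.2 CPM in PF ependymal-like cells, which line the ventricles, a ratio of 0.704 (0.556 to 0.893). Nsdhl was also lower in microglia-like cells, at 0.788, with an interval (0.591 to 1.05) that included 1. In ependymal-like cells Lss (0.774, 0.643 to 0.933) and Dhcr7 (0.723, 0.555 to 0.942) were lower as well. Insig1 came to 20.4 CPM in HS against 29.9 CPM in PF ependymal-like cells, a ratio of 0.682 (0.583 to 0.798). Its ratio was under 1 in all 5 classes measured, and so was that of Srebf1. The stricter gate, which left 69 HS and 74 PF ependymal-like cells, turned the Insig1 ratio there to 1.24 and moved that of Nsdhl to 0.133. With the main gate Insig1 had 303 UMIs in 1097 HS cells and 347 UMIs in 1010 PF cells. Few UMIs of either gene remain with the stricter gate, so the counting error of these ratios is wide. Srebf1 came to 146.5 CPM in HS against 188 CPM in PF astrocyte-like cells, a ratio of 0.778 (0.705 to 0.858). Srebf2 came to 57.9 CPM in HS against 84.1 CPM in PF pericyte-like cells, a ratio of 0.689 (0.524 to 0.901). In the other 6 classes where Srebf2 was measured it was not called. Scap in microglia-like cells (0.798, 0.630 to 1.01) and Stard4 in oligodendrocyte-like cells (0.728, 0.564 to 0.937) complete the lower pairs.

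The higher pair was Apoe in microglia-like cells (1 of 20 members, against 4.28% of all genes). It came to 1180.5 CPM in HS and 896.6 CPM in PF, with a ratio of 1.32 (1.28 to 1.35). Much of this sum lay in few cells. The top 1% of the cells by Apoe, 15 in HS and 18 in PF, held 56.5% of its UMIs in HS against 38.7% in PF. The median microglia-like cell had 1.72 Apoe UMIs per 10000 in HS against 1.80 in PF. The summed proliferation markers Mki67, Top2a and Cdk1 came to 79.1 CPM in HS, 22.8 CPM in QS and 57.3 CPM in PF microglia-like cells. Markers of border-associated macrophage-like cells, the class highest in Apoe, came to 13.7 CPM in HS and 17.6 CPM in PF, lower in HS where Apoe was higher. Those of astrocyte-like cells, the next class in Apoe, came to 59.1 CPM in HS and 51.3 CPM in PF, higher in HS as Apoe was. The part of any of these marker sets in the result was not tested.

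The enzyme sum was lower in HS than in PF in all 8 classes by CPM with the main gate. Not every class was lower under other settings. The highest class ratio was 1.02 with scaling by the median of ratios and 1.02 with the stricter gate. The values that follow are those by CPM with the main gate. The ratio was 0.617 (0.532 to 0.715) in border-associated macrophage-like cells, 0.843 (0.756 to 0.939) in pericyte-like cells and 0.863 (0.812 to 0.917) in vascular smooth muscle-like cells. It was 0.898 (0.869 to 0.928) in ependymal-like and 0.938 (0.916 to 0.960) in endothelial-like cells. In oligodendrocyte-like cells (0.988, 0.967 to 1.01) and astrocyte-like cells (0.986, 0.948 to 1.03) the interval included 1. The macrophage value rests on 267 UMIs in 187 HS cells and 586 UMIs in 268 PF cells. In the same macrophages markers of pericyte-like cells came to 44.9 CPM in HS against 147 CPM in PF, of endothelial-like cells to 328 CPM in HS against 465 CPM in PF, and of microglia-like cells to 1102 CPM in HS against 1324 CPM in PF. Those of astrocyte-like cells came to 95.7 CPM in HS against 39.3 CPM in PF, and of oligodendrocyte-like cells to 123 CPM in HS against 101 CPM in PF. Their part in the lower sum was not tested.

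In QS against PF the balance turned the other way, and 10 of the 20 higher pairs lay in ependymal-like cells. Of 152 pairs 20 were higher (13.2%) and 4 were lower (2.63%), whereas over all genes 4.59% were higher and 7.86% lower. Synthesis enzymes made up 17 of the 20 higher pairs, and 7 higher pairs reached 1.5 fold, against 0.744% of all pairs. Of the lower pairs 0 did, against 1.6% of all pairs. The 20 higher pairs include Tm7sf2 in oligodendrocyte-like and Dhcr7 in microglia-like cells, which were measured only in comparisons with QS. That Tm7sf2 pair is also among the 7 at 1.5 fold. With no UMI minimum 37 of 240 pairs were higher (15.4%), against 20.6% of all pairs, and with the stricter gate 7 of 81 (8.64%), against 6.22%. The 20.6% includes genes with UMIs in only 1 of the libraries, unlike the members. The median log2 ratio was 0.04 for the members and -0.01 for all genes. In ependymal-like cells 10 of 28 members were higher, against 4.0% of all genes there: Acat2, Hmgcs1, Mvk, Pmvk, Idi1, Fdft1, Cyp51, Msmo1, Sc5d and Insig1. In the same cells Nsdhl and Dhcr7 were lower (2 of 28, against 6.09%).

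In ependymal-like cells Idi1 came to 53.8 CPM in QS against 28.1 CPM in PF, a ratio of 1.91 (1.67 to 2.19). Cyp51 came to 34.2 CPM in QS against 20.7 CPM in PF, a ratio of 1.66 (1.41 to 1.95). Hmgcs1 came to 182 CPM in QS against 113 CPM in PF, a ratio of 1.61 (1.5 to 1.73). These enzymes stood well above PF, and Msmo1 less so, at 135 CPM in QS against 97.9 CPM in PF, a ratio of 1.37 (1.27 to 1.48). Insig1 came to 46.3 CPM in QS against 29.9 CPM in PF, a ratio of 1.55 (1.35 to 1.78), and 2.83 with the stricter gate. Dhcr7 was 7.67 CPM in QS against 10.5 CPM in PF, a ratio of 0.730 (0.550 to 0.966). With the stricter gate (80 QS and 74 PF cells) the Dhcr7 ratio was 1.13. Dhcr7 was higher in QS in microglia-like cells (1.34, 1.04 to 1.72) and endothelial-like cells (1.29, 1.11 to 1.5). Its microglia-like UMIs reached the minimum only in comparisons with QS. Higher members numbered 1 of 21 in microglia-like (3.75% of all genes there) and 2 of 28 in endothelial-like cells (4.67%).

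Other classes had fewer higher enzymes. In oligodendrocyte-like cells 4 of 29 members were higher, against 5.67% of all genes there: Mvd (1.39), Lss (1.39), Tm7sf2 (1.63) and Hsd17b7 (1.43). Tm7sf2 reached the UMI minimum there only in comparisons with QS, and its QS to HS ratio was 0.977. In vascular smooth muscle-like cells 2 of 12 were higher (4.0%): Cyp51 had a ratio of 1.27 with an interval (0.983 to 1.63) that included 1, and Msmo1 had 1.30 (1.08 to 1.56). The stricter gate turned that Cyp51 ratio to 0.833. No enzyme was called in astrocyte-like cells. Their enzyme sum was lower in QS than in PF, at 0.888 (0.853 to 0.926), and so was that of border-associated macrophage-like cells, at 0.697 (0.586 to 0.826). The macrophage value rests on 177 UMIs in 127 QS cells and 586 UMIs in 268 PF cells. There, pericyte-like markers came to 64.2 CPM in QS against 147 CPM in PF, and oligodendrocyte-like markers to 83.5 against 101 CPM. Astrocyte-like (53.0 against 39.3 CPM) and ependymal-like markers (63.2 against 59.6 CPM) were higher in QS. Their part in the lower macrophage sum was not tested. The ependymal-like sum was higher, at 1.33 (1.29 to 1.37).

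Among efflux and uptake genes, endothelial-like cells had 809.5 CPM of Apoe in QS against 602 CPM in PF, for a ratio of 1.34 (1.32 to 1.37). The median endothelial-like cell also had more, with 6.88 Apoe UMIs per 10000 in QS against 5.20 in PF. Markers of astrocyte-like cells came to 100 CPM in QS, 94.0 CPM in HS and 83.5 CPM in PF endothelial-like cells. Those of border-associated macrophage-like cells came to 3.49 CPM in QS, 6.75 CPM in HS and 7.65 CPM in PF. The part of these markers in the endothelial-like result was not tested. In border-associated macrophage-like cells Apoe had a ratio of 1.30 (1.28 to 1.32), with medians of 235 UMIs per 10000 in QS and 189 in PF (1 of 3 members higher, against 9.53% of all genes). With the stricter gate, which left 8 QS and 14 PF macrophages, the ratio was 0.873. There the proliferation markers came to 25.5 CPM in QS and 94.1 CPM in PF, and their part in the result was not tested. Abca1 in endothelial-like cells came to 49.3 CPM in QS against 63.3 CPM in PF, for a ratio of 0.779 (0.725 to 0.837), as 1 of 28 lower there (5.8% of all genes). Apoe and Abca1 thus differed in opposite directions in the same endothelial-like cells. Npc2 came to 123 CPM in QS against 160.5 CPM in PF astrocyte-like cells, a ratio of 0.768 (0.689 to 0.857). It was 1 of 24 members lower there, against 13.8% of all genes.

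**Figure D3:**
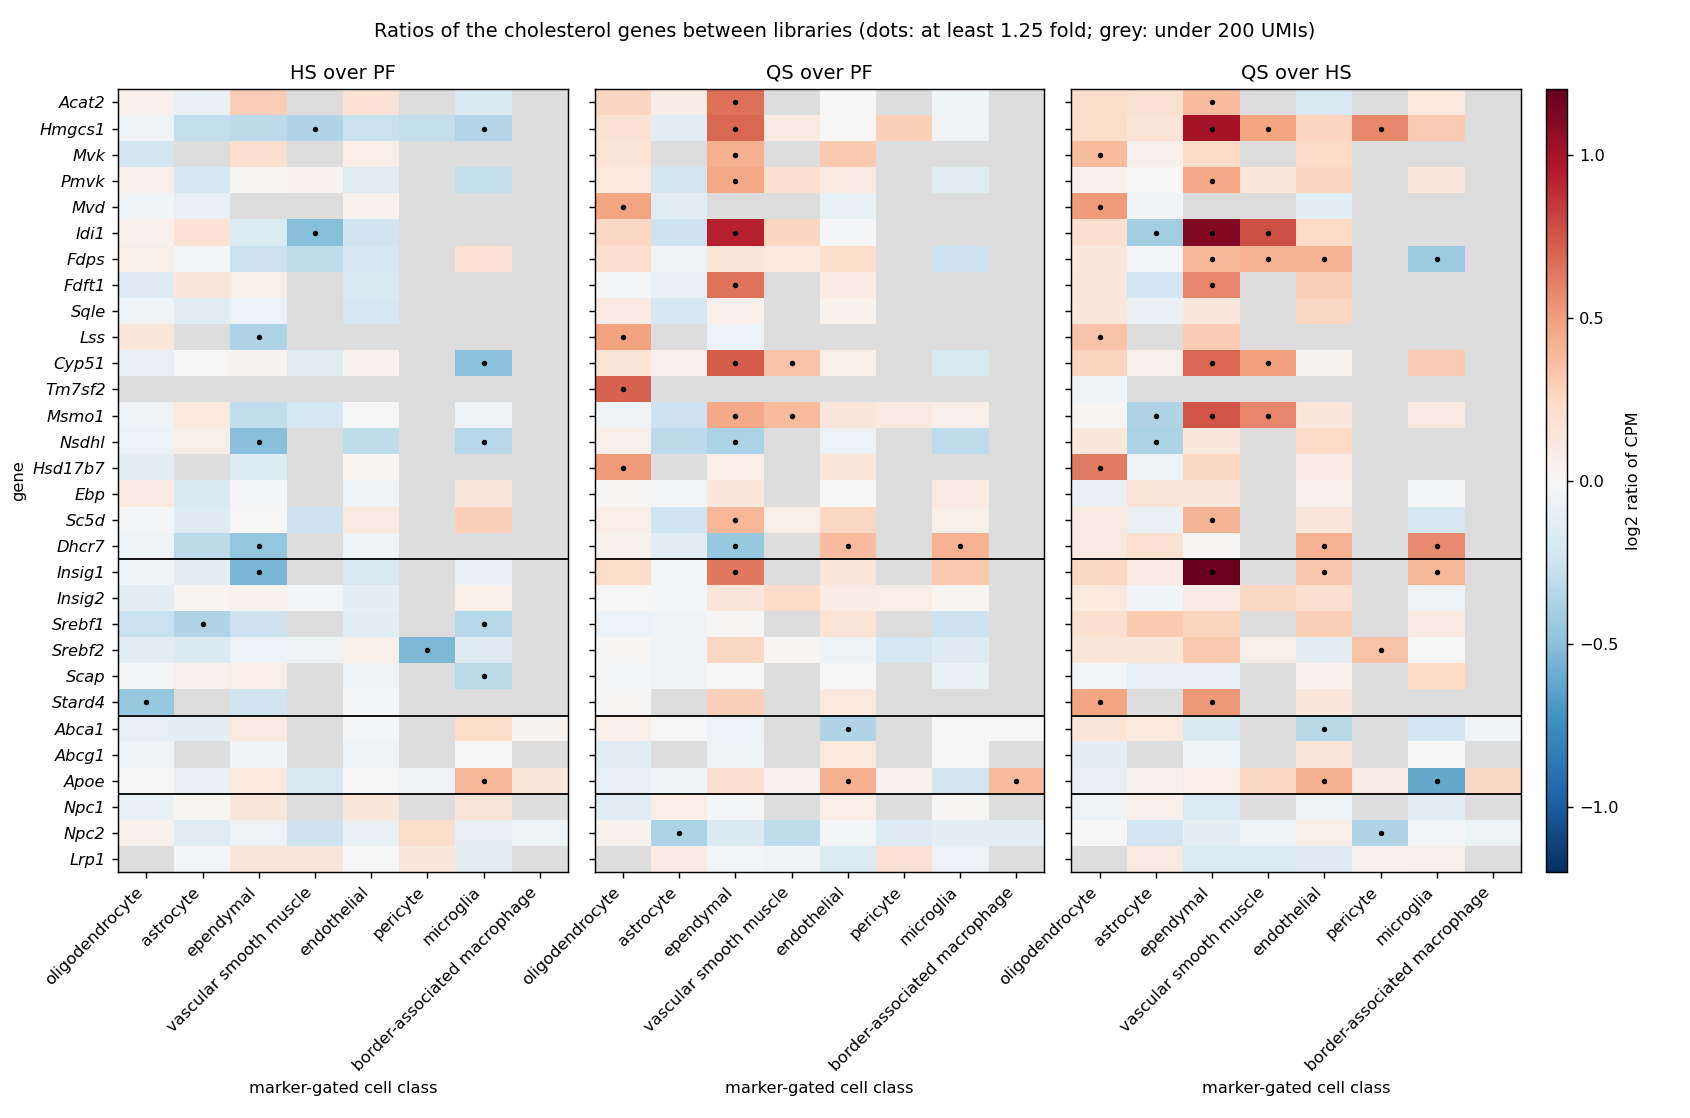
Log2 ratio of CPM for 30 genes in 8 classes, in panels for HS over PF, QS over PF and QS over HS, with dots where a pair is called and grey where both libraries together had under 200 UMIs. The ependymal-like column holds 10 dots for higher genes in QS over PF and 11 in QS over HS.

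In QS against HS more members passed the fold than in either comparison with PF, and most of them were higher in QS. Of 150 pairs 29 were higher (19.3%) and 7 were lower (4.67%), whereas over all genes 6.59% were higher and 8.88% lower. The median log2 ratio was 0.12 for the members and -0.01 for all genes. Higher pairs numbered 22 of 82 for synthesis, 6 of 31 for control, 1 of 18 for efflux and 0 of 19 for uptake. With no UMI minimum 58 of 240 pairs were higher (24.2%), against 22.5% of all pairs, and with the stricter gate 9 of 83 (10.8%), against 8.34%. The 22.5% includes genes with UMIs in only 1 of the libraries, unlike the members. At 1.5 fold 8 pairs were higher and 1 lower, against 1.1% and 1.84% of all pairs. In ependymal-like cells 11 of 28 members were higher and 0 lower, against 5.1% higher and 9.77% lower among all genes there.

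In ependymal-like cells Insig1 came to 46.3 CPM in QS, 20.4 CPM in HS and 29.9 CPM in PF, a QS to HS ratio of 2.27 (1.97 to 2.62). Idi1 came to 53.8 CPM in QS, 25.1 CPM in HS and 28.1 CPM in PF, a ratio of 2.14 (1.88 to 2.44). Hmgcs1 came to 182 CPM in QS, 91.1 CPM in HS and 113 CPM in PF, a ratio of 2.0 (1.87 to 2.15). For each of these 3 genes QS was the highest library and HS the lowest. Msmo1 (1.69, 1.57 to 1.82), Cyp51 (1.62, 1.39 to 1.88) and Fdft1 (1.5, 1.30 to 1.73) followed, and the stricter gate moved Msmo1 to 2.79. Fdps came to 32.3 CPM in QS, 24.5 CPM in HS and 29.3 CPM in PF, a ratio of 1.32 (1.14 to 1.53). Stard4 came to 21.4 CPM in QS and 14.9 CPM in HS, a ratio of 1.43 (1.19 to 1.73), and 0.665 with the stricter gate (80 QS and 69 HS cells). Srebf1 and Srebf2 were not called, with a ratio of 1.2 (1.13 to 1.28) for Srebf1.

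**Figure D4:**
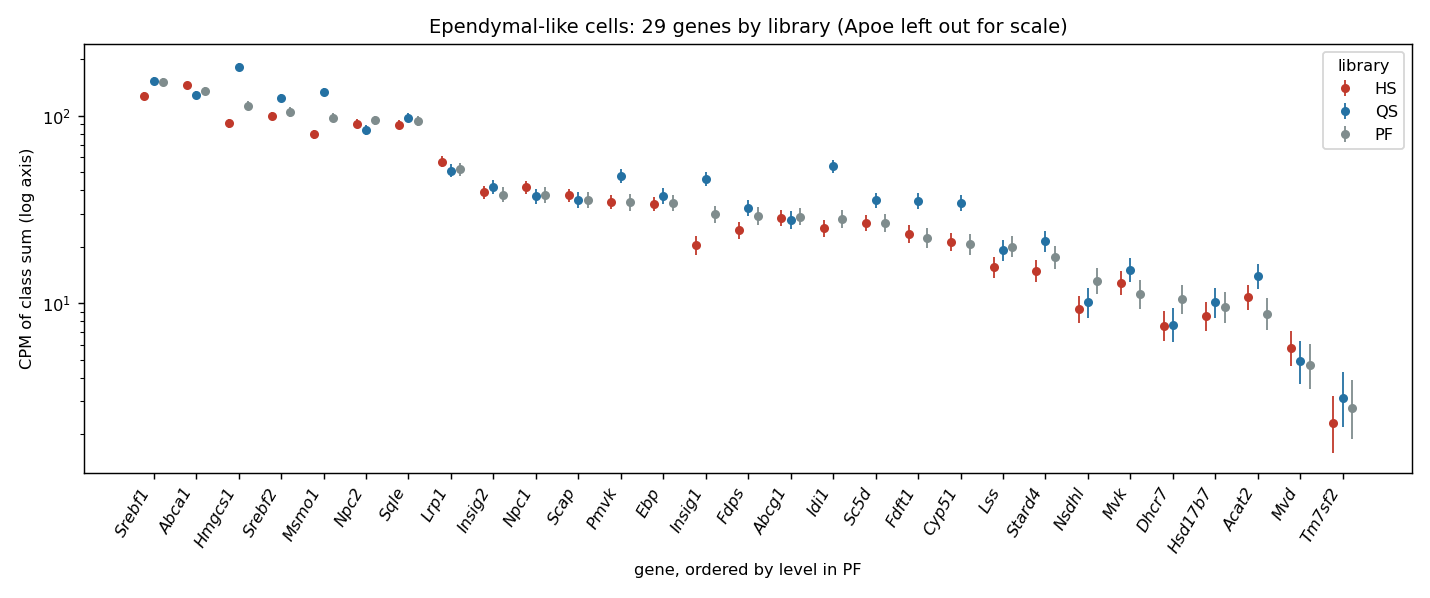
CPM of 29 genes in ependymal-like cells of the HS, QS and PF libraries on a log axis, with exact 95% intervals for counting error; genes run by their PF level and Apoe is left out for scale. Hmgcs1, Msmo1, Insig1, Idi1 and Cyp51 stand out with QS points above both others, while those of Sqle lie between 89.6 and 97.7 CPM.

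The difference was also seen per cell. After thinning each cell to 5000 UMIs, a view added after the data had been seen, the median number of enzyme UMIs per cell was 3 in QS (818 cells), 2 in HS (984 cells) and 2 in PF (840 cells). The means were 3.82 in QS, 2.54 in HS and 2.88 in PF, and the quartiles were 2 and 5 in QS, 1 and 3 in HS, and 1 and 4 in PF. Thinning left out 125 QS, 113 HS and 170 PF cells with fewer UMIs. Without thinning the medians were 6.33 enzyme UMIs per 10000 in QS, 4.54 in HS and 4.99 in PF. In oligodendrocyte-like cells the thinned medians were 8 in QS, 7 in HS and 8 in PF. Markers of oligodendrocyte-like cells summed to 87.9 CPM in QS, 58.7 CPM in HS and 71.6 CPM in PF ependymal-like cells, which is 0.726%, 0.526% and 0.690% of their level in oligodendrocyte-like cells. Those of astrocyte-like cells summed to 898 CPM in QS, 927 CPM in HS and 839 CPM in PF, which is 11.4%, 10.9% and 10.3% of their level in astrocyte-like cells. The part of other cells in the result was not tested. Median depth in ependymal-like cells was 10616 UMIs in QS, 10208 in HS and 9421.5 in PF.

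**Figure D5:**
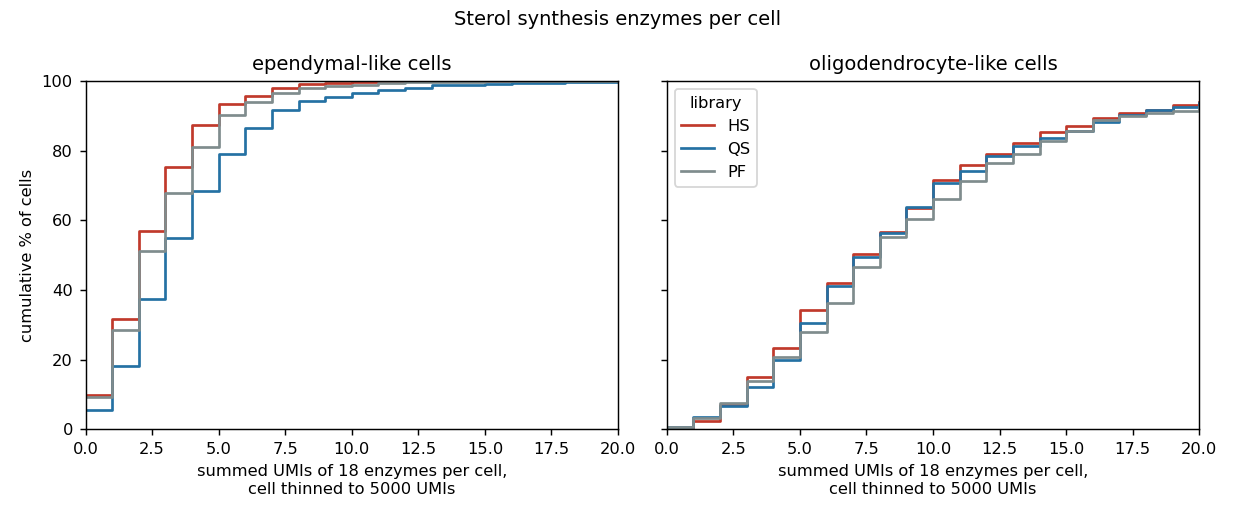
Cumulative percentage of ependymal-like and oligodendrocyte-like cells by their summed UMIs of the 18 enzymes after thinning to 5000 UMIs, for the HS, QS and PF libraries. In ependymal-like cells the QS curve lies to the right of the others (means 3.82 in QS, 2.54 in HS and 2.88 in PF), while the curves of oligodendrocyte-like cells run close together.

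Vessel cells also had more of these enzymes in QS than in HS. In vascular smooth muscle-like cells 5 of 11 members were higher, against 6.25% of all genes there. Idi1 came to 59.4 CPM in QS against 34.7 CPM in HS, a ratio of 1.71 (1.38 to 2.13). Msmo1 (1.5, 1.24 to 1.83), Cyp51 (1.40, 1.07 to 1.83), Hmgcs1 (1.39, 1.17 to 1.64) and Fdps (1.34, 1.06 to 1.68) were the others. In pericyte-like cells 2 of 5 were higher (7.23%): Hmgcs1 had a ratio of 1.49 (1.13 to 1.97) and Srebf2 1.26 (0.949 to 1.69). In endothelial-like cells Fdps came to 59.2 CPM in QS against 44.5 CPM in HS, a ratio of 1.33 (1.24 to 1.43), and Dhcr7 was higher too (1.34, 1.15 to 1.56). Insig1 came to 57.6 CPM in QS against 46.1 CPM in HS endothelial-like cells (interval of the ratio 1.16 to 1.35). With Apoe these were 4 of 28 members, against 8.76% of all genes. The stricter gate left 45 QS and 42 HS smooth muscle-like cells, in which Hmgcs1 had a ratio of 0.660 and Idi1 0.954. Markers of oligodendrocyte-like cells, the class with the highest enzyme sum, came to 86.3 CPM in QS, 57.6 CPM in HS and 78.1 CPM in PF vascular smooth muscle-like cells. They came to 137 CPM in QS, 84.6 CPM in HS and 145 CPM in PF pericyte-like cells, and to 82.7, 67.9 and 90.4 CPM in endothelial-like cells of QS, HS and PF. Their part in these results was not tested.

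Hmgcs1 was above 1 in QS against HS in all 7 classes measured, and Insig1 and Srebf1 were above 1 in all 5. Insig1 in microglia-like cells came to 46.3 CPM in QS against 35.2 CPM in HS, a ratio of 1.32 (1.16 to 1.5). With Dhcr7 (1.48, 1.12 to 1.96), measured there only in comparisons with QS, it made 2 of 20 members, against 4.65% of all genes. Stard4 in oligodendrocyte-like cells had a ratio of 1.39 (1.11 to 1.76), and Mvk (1.30), Mvd (1.42), Lss (1.27) and Hsd17b7 (1.55) were also higher there, which is 5 of 29 members against 6.6% of all genes. In astrocyte-like cells Idi1 (0.748, 0.631 to 0.885), Msmo1 (0.778, 0.726 to 0.834) and Nsdhl (0.767, 0.655 to 0.896) were lower and 0 of 26 members were higher (7.03% of all genes). The 3 lower of 26 are near the 9.29% of all genes called lower there. Fdps was lower in microglia-like cells, at 10.8 CPM in QS against 14.6 CPM in HS, a ratio of 0.740 (0.589 to 0.930). With Apoe this made 2 of 20 lower, against 7.06% of all genes.

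Apoe in endothelial-like cells had a ratio of 1.34 (1.31 to 1.37) in QS against HS, and Abca1 in the same cells had 0.793 (0.738 to 0.853; 1 of 28 lower, against 8.33%). Apoe in microglia-like cells came to 769.9 CPM in QS against 1180.5 CPM in HS, a ratio of 0.652 (0.636 to 0.669). The top 1% of those cells held 58.5% of Apoe UMIs in QS against 56.5% in HS, and the median cell had 1.58 Apoe UMIs per 10000 in QS against 1.72 in HS. Markers of border-associated macrophage-like cells, the class highest in Apoe, came to 6.52 CPM in QS, 13.7 CPM in HS and 17.6 CPM in PF microglia-like cells, and their part in the result was not tested. The ratio was 0.742 with doublets kept, 0.612 with free RNA subtracted and 0.443 with the stricter gate. Npc2 in pericyte-like cells came to 105 CPM in QS against 134 CPM in HS, a ratio of 0.780 (0.631 to 0.964), as 1 of 5 lower there (9.29%).

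Sqle, Ebp, Insig2, Abcg1, Npc1 and Lrp1 had no pair called in any comparison. Sqle came to 89.6 CPM in HS, 97.7 CPM in QS and 93.9 CPM in PF ependymal-like cells, where Fdft1 and Cyp51, which act before and after it, were higher in QS. Abcg1 came to 46.7 CPM in microglia-like cells of each library. Lrp1 came to 337 CPM in HS, 363 CPM in QS and 339.7 CPM in PF astrocyte-like cells. Insig2 came to 77.3 CPM in HS, 91.7 CPM in QS and 78.1 CPM in PF vascular smooth muscle-like cells. Over all classes measured, QS to HS ratios lay between 0.946 and 1.19 for Sqle and between 0.968 and 1.19 for Insig2, while that of Insig1 reached 2.27.

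The enzyme sum in QS against HS was 1.48 (1.44 to 1.53) in ependymal-like, 1.31 (1.23 to 1.40) in vascular smooth muscle-like and 1.28 (1.14 to 1.43) in pericyte-like cells. It was 1.14 (1.11 to 1.17) in endothelial-like and 1.11 (1.09 to 1.13) in oligodendrocyte-like cells, and 0.901 (0.868 to 0.935) in astrocyte-like cells. Averaged per cell, the oligodendrocyte-like libraries lay closer together, at 18.27 enzyme UMIs per 10000 in QS, 18.15 in HS and 18.62 in PF. After thinning these means were 9.67 in QS, 9.23 in HS and 9.73 in PF. In microglia-like cells (1.05, 0.996 to 1.12) and border-associated macrophage-like cells (1.13, 0.928 to 1.37) the interval included 1. The median over the 8 classes was 1.14 for QS against HS, 1.07 for QS against PF and 0.918 for HS against PF. Abundant enzymes weigh most in such a sum. In ependymal-like cells, with sums of 522 CPM in HS and 775 CPM in QS, Hmgcs1 went from 91.1 to 182 CPM. Sqle, at a like level in HS, went from 89.6 to 97.7 CPM.

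Other genes around the pathway were read as lists, against the shares over all genes given above: 5.05% lower and 4.47% higher in HS against PF, 7.86% and 4.59% in QS against PF, and 8.88% and 6.59% in QS against HS. Of the 14 fatty acid targets of SREBP, 8 of 69 pairs were lower (11.6%) and 4 higher (5.80%) in HS against PF, with Fads2, a fatty acid desaturase, at 417 CPM in HS against 532 CPM in PF astrocyte-like cells. In QS against PF 4 of 69 pairs were lower (5.80%) and 5 higher (7.25%), and in QS against HS 5 of 68 were lower (7.35%) and 8 higher (11.8%). Elovl6, a fatty acid elongase, came to 19.8 CPM in QS against 12.7 CPM in HS ependymal-like cells, a ratio of 1.56 (1.28 to 1.90). Acsl3, which activates fatty acids, differed in direction between classes, with QS to HS ratios of 1.38 in oligodendrocyte-like and 0.771 in astrocyte-like cells.

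The 9 genes of SREBP processing and sterol-regulated degradation had 1 lower and 2 higher of 44 pairs in HS against PF, 1 and 2 of 43 in QS against PF, and 2 and 0 of 43 in QS against HS, all at or under 4.65% of pairs. In the list of sterol sensing, ester and oxysterol genes Ch25h, which makes an oxysterol, came to 79.9 CPM in HS, 19.9 CPM in QS and 60.2 CPM in PF endothelial-like cells. QS stood far below both others, with ratios of 0.331 (0.299 to 0.366) to PF and 0.25 (0.226 to 0.275) to HS. Soat1, which esterifies cholesterol, had 90 CPM in QS against 66.8 CPM in PF ependymal-like cells, a ratio of 1.35 (1.23 to 1.48). The list had 0 lower and 4 higher of 55 pairs in HS against PF, 4 and 5 of 56 in QS against PF, and 2 and 5 of 54 in QS against HS. The higher pairs were 7.27%, 8.93% and 9.26%.

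Of the 20 carriers, the longest list, 11 of 102 pairs were lower in HS against PF (10.8%), 17 of 102 in QS against PF (16.7%) and 13 of 104 in QS against HS (12.5%), with 3, 2 and 2 higher. Apod, a lipocalin that binds lipids, was called lower in QS against PF in all 8 classes and so gave 8 of those 17 pairs. The part of free RNA or of other cells in these 8 pairs was not tested. In astrocyte-like cells Apod came to 33.1 CPM in HS, 23.6 CPM in QS and 71.6 CPM in PF. Lrp8, a receptor for Apoe, came to 96.5 CPM in HS, 105 CPM in QS and 70.6 CPM in PF endothelial-like cells, where both HS (1.37) and QS (1.49) stood above PF. The 10 genes of the isoprenoid branch had 0 lower and 4 higher of 57 pairs, 2 and 3 of 56, and 3 and 1 of 57 in the same order of comparisons. The highest of these shares was 7.02%, for higher pairs in HS against PF.

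Some members overlap other protein-coding genes, and how the counting split such reads was not stated. Overlaps with other kinds of gene were not looked for. Fdps overlaps Gm43738 and Tm7sf2 overlaps Vps51 on the same strand. Mvd, Fdft1, Cyp51, Srebf1 and Npc1 overlap a protein-coding gene on the opposite strand.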

How the data were processed

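Single-cell counts from the hypothalamus were read in 3 libraries (HS, QS and PF). The authors deposited filtered UMI count matrices, made with Cell Ranger 5.0.0 and Seurat 3.1.2 on mm10 per the submitters' processing notes, whereas the file headers name Cell Ranger 7.0.1. Neither source states whether introns were counted. Tissue was digested with collagenase and libraries were made with the 10x 3′ kit v3, per the labels' protocols. Digestion can lose cell types and change RNA levels.

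Cells with under 500 UMIs, under 200 genes or over 20% mitochondrial UMIs were removed (208 HS, 211 QS and 194 PF), as were the doublets called by Scrublet in Scanpy 1.11.5 at an expected 0.8% per 1000 barcodes (672, 727 and 765). A cell was gated to a class when it had at least 3 of 5 gate markers, a normalised score of at least 0.25 of the class reference and a second class at no more than 0.4 of the first. Gating took 10364 HS, 9758 QS and 10640 PF cells. The gate thresholds were set after the data had been seen. Counts were summed per class and library and divided by the class total to give CPM. CPM intervals are exact Poisson and ratio intervals exact conditional binomial. They cover counting error only.

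A pair of gene and class was measured at 200 UMIs or more in both libraries together and called when 25% or more above, or 20% or more below. In each comparison and role, the members past the fold in most classes, then with the largest ratio, were named, up to 10 per comparison, and up to 4 per other list. Further pairs named were chosen after their values were seen. The members and lists were chosen with earlier results of these data known. Scripts ran under Python 3.11.15 with NumPy 2.4.6, SciPy 1.17.1 and pandas 2.3.3, and were tested on simulated data. Alternatives were a minimum of 1000 UMIs, doublets kept, 5% free RNA subtracted, the stricter gate, other scalings (median of ratios, or totals without mitochondrial, ribosomal protein and haemoglobin genes), no UMI minimum and a fold of 1.5.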

Additional observations from a re-analysis of the deposited data

Results flagged for a closer look

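In 5 cases 1 of the 30 members was called in opposite directions in different classes of the same comparison. Idi1 in QS against HS had ratios of 2.14 in ependymal-like and 0.748 in astrocyte-like cells, which are 2.86 times apart. Msmo1 in the same comparison and classes had 1.69 and 0.778, which are 2.17 times apart. Apoe in QS against HS had 1.34 in endothelial-like and 0.652 in microglia-like cells, 2.05 times apart. Fdps in QS against HS had 1.34 in vascular smooth muscle-like and 0.740 in microglia-like cells, 1.81 times apart. Dhcr7 in QS against PF had 1.34 in microglia-like and 0.730 in ependymal-like cells, 1.83 times apart. The microglia-like pair of Dhcr7 was measured only in comparisons with QS. With 1 library a group these differences were not tested.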

How the results depend on the processing

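No paired analysis was possible because each group was 1 library with no replicate number, and for the same reason no replicate could be left out. The median enzyme ratio over classes stayed at 0.914 to 0.922 for HS against PF, 1.03 to 1.07 for QS against PF and 1.10 to 1.15 for QS against HS under the alternatives run. With no UMI minimum, lower and higher pairs of 240 numbered 49 and 11 in HS against PF, 30 and 37 in QS against PF, and 22 and 58 in QS against HS. The shares over all genes were then 23.9% and 22.5%, 27.6% and 20.6%, and 27.6% and 22.5%. The lower members in HS against PF (20.4%) and the higher ones in QS against PF (15.4%) were below these shares. The higher ones in QS against HS (24.2%) were near theirs. The shares over all genes include genes with UMIs in only 1 of the libraries, which are always called. Every member pair had UMIs in both, so these shares are unlike and cannot rank the members against all genes. At 1.5 fold lower and higher members numbered 0 and 0, 0 and 7, and 1 and 8. With the stricter gate they numbered 7 and 2 of 72, 2 and 7 of 81, and 3 and 9 of 83, against 5.85% and 5.31%, 6.6% and 6.22%, and 7.19% and 8.34% of all genes. The higher members in QS against PF (8.64%) and QS against HS (10.8%) were then nearer to all genes than in the main counts. Subtracting free RNA at 5% gave 2 higher pairs in HS against PF and 10 lower pairs in QS against PF. The stricter gate left 7 enzymes highest in oligodendrocyte-like cells without overlap, against 14. Of 282 recomputed ratios of 47 named pairs, 250 kept their value within the counting interval, 24 moved and 8 reversed, all 8 with the stricter gate. These were, in HS against PF, Idi1 in vascular smooth muscle-like (1.23) and Insig1 in ependymal-like cells (1.24). In QS against PF they were Cyp51 in vascular smooth muscle-like (0.833), Dhcr7 in ependymal-like (1.13) and Apoe in border-associated macrophage-like cells (0.873). In QS against HS they were Hmgcs1 (0.660) and Idi1 (0.954) in vascular smooth muscle-like and Stard4 in ependymal-like cells (0.665). The stricter gate left 4034 HS, 4585 QS and 3786 PF cells, and the cause of these changes was not tested. Its ratios were given no intervals, and in small classes they rest on few UMIs, so a reversal can lie within counting error. Depth limits low genes and small classes most.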
